A study of Mus musculus with 30 samples.

Results

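The integrin and laminin genes were followed in the mouse ovary over 5 ages before birth, from 11.5 to 18.5 days post coitum (dpc). They were taken as the genes whose single platform symbol begins with Itga or Itgb, or with Lama, Lamb or Lamc, which gave 72 of 36701 probe sets and 40 of 15964 genes. By their names 18 of the genes encode integrin α subunits, 8 integrin β subunits, 5 laminin α chains, 3 laminin β chains and 2 laminin γ chains. The other 4, Itgb1bp1, Itgb1bp2, Itgb3bp and Itgbl1, match the naming rule but encode neither an integrin subunit nor a laminin chain. The samples were total RNA of pooled embryonic ovaries from BL/6-129 mice at 11.5, 12.5, 14.5, 16.5 and 18.5 dpc, with 2 numbered samples at each age and no treatment or mutation stated. Every number came with an array of each of 3 Affymetrix types (A, B and C), whose probe sets differ. The labels state sexing by PCR for the male gene Sry at 11.5 and 12.5 dpc only. Whether both samples of an age were separate pools is not stated, so the p-values cover only how far these samples differ from each other, and that difference may be technical.

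An integrin is a receptor in the cell membrane made of 1 α and 1 β subunit, which binds extracellular matrix or other cells on the outside and the actin cytoskeleton on the inside. A laminin is a secreted protein made of 1 α, 1 β and 1 γ chain. Laminins assemble into the sheet that, with type IV collagen, nidogen and perlecan, forms a basement membrane, and several integrins bind it through the laminin α chain. In the fetal ovary basement membranes lie around the cords that hold germ cells and supporting cells, under the surface epithelium and around blood vessels.

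All values are signal intensities that the authors scaled to a mean of 125 on each array. A signal has no meaning between probe sets, so levels of single genes were compared only across ages within a probe set. The sums of marker lists add signals of different probe sets. Genes with high signals weigh most in them, and they are given as a description. A probe set was tested if 2 or more of its 10 arrays showed a signal of 50 or higher, and a change was called where limma's adjusted p (Benjamini-Hochberg, over 24825 tested probe sets) was under 0.05. Log2 changes and folds refer to log2(signal + 16), which understates changes at low signal. Across tested probe sets Pearson's r between both samples of an age was 0.950 to 0.974 for array A, 0.877 to 0.920 for B and 0.856 to 0.896 for C, given as a description. Of 10 marker genes of the ovary's supporting cells, all tested, 6 were higher at 18.5 than at 11.5 dpc (Foxl2, Fst, Rspo1, Irx3, Lgr5 and Gng13), Gata4 was lower, and Wnt4, Bmp2 and Nr5a1 were not called, where 17.5% of all genes were called. Of 8 testis genes 5 were tested. Hsd3b1 was called as higher and Cyp11a1, which passed 50 at 11.5 dpc only, as lower, and Amh and Cyp17a1 had signals under 50 at every age. The 8 summed to 1543.5 and 1475.2 at 18.5 dpc, against 1667.8 and 2015.4 at 11.5 dpc, and none was at 0. The 3 prime to 5 prime signal ratio of the Gapdh control was 1.076 and 1.054 at 18.5 dpc, against 0.845 and 0.829 at 11.5 dpc. It moved with age beside every comparison of these ages, and its part in the results was not tested. In RNA of a whole organ, fewer cells of a type and less RNA per cell cannot be told apart.

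Of the 72 probe sets 36 were tested, which stand for 22 of the 40 genes: 14 integrin subunit genes, 6 laminin chain genes, Itgb1bp1 and Itgb3bp. Between 18.5 and 11.5 dpc 7 of the 36 (19.4%) were called, against 14.5% of all tested probe sets. Itga3, Itga6 and Itgb1bp1 were higher at 18.5 dpc on 1 probe set each, and Itga8, Itgb1, Itgav and Lamb2 were lower on 1 probe set each. The 3 higher were 8.33% of the tested members, against 7.59% of all tested probe sets, and the 4 lower were 11.1%, against 6.87%. Both 18.5 dpc samples lay above both at 11.5 dpc on 36.1% of the tested members, against 28.8% of all tested probe sets. They lay below on 25%, against 26.9%. This order, given below for single probe sets, was thus common and is a description. The median log2 change of the 36 was 0.01, against 0.02 over all tested probe sets. It was -0.22 for the 19 probe sets of integrin subunits, 0.09 for the 12 of laminin chains and 0.32 for the other 5, given as a description. The F test over the 5 ages called 7 probe sets (19.4%, against 14.4% of all), those of Itga3, Itga6, Itga8, Itgb1 and Lamb2 just named and 1 each of Lama1 and Lama4. The highest mean signal of these 7 was at 11.5 dpc for Lamb2 and Lama4, at 12.5 dpc for Itga8 and Itgb1, and at 16.5 dpc for Itga3, Itga6 and Lama1.

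Between successive ages few single steps passed the test. Itga6 and Lama1 were higher at 14.5 than at 12.5 dpc, which made 2 of 36 members (5.56%), against 1.66% of all tested probe sets called and 1.08% called as higher. No member was called between 12.5 and 11.5 dpc, where limma called 0.226% of all probe sets, between 16.5 and 14.5 dpc (0.689%) or between 18.5 and 16.5 dpc (0.624%). At an unadjusted p under 0.05 there were 9 members in 12.5 against 11.5 dpc (25% of the 36, against 12.4% of all tested probe sets) and 8 in 14.5 against 12.5 dpc (22.2%, against 14.9%). There were 7 in 16.5 against 14.5 dpc (19.4%, against 15.6%) and 7 in 18.5 against 16.5 dpc (19.4%, against 13.1%). The median log2 change of the members was 0.09, 0.04, 0.08 and -0.10 in the 4 successive intervals, against 0.01, -0.01, 0.00 and -0.01 over all tested probe sets.

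**Figure D1:**
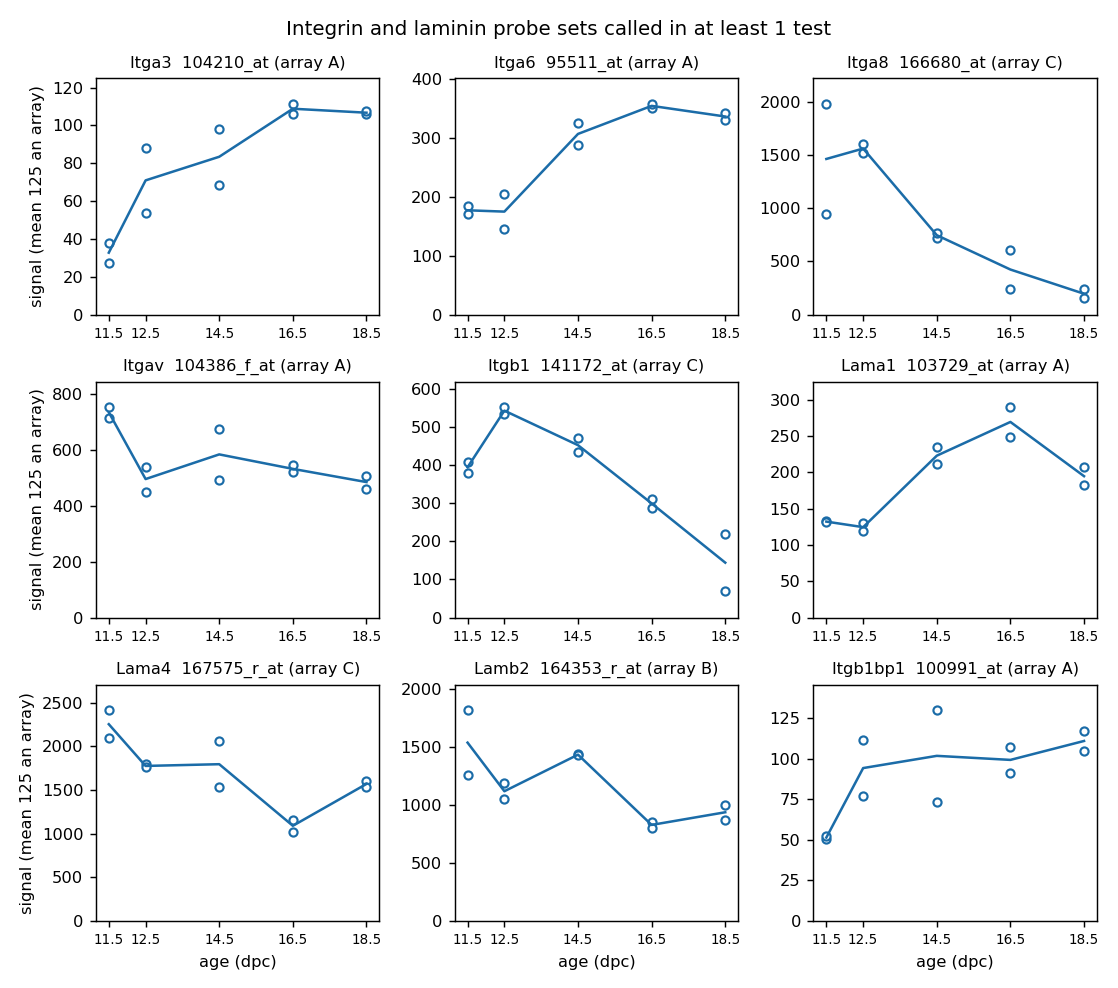
Signal (vertical axes, linear, scaled by the authors to a mean of 125 on each array) against age in dpc (horizontal axes) for the 9 probe sets called in at least 1 of the 6 tests, with 1 circle a sample and a line through the means of 2 samples. Itga8 and the Itgb1 probe set end below their values at 11.5 dpc, Itga3 and Itga6 end above theirs, and Lama1 is highest at 16.5 dpc.

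Itga8 gave the largest change of the group between 18.5 and 11.5 dpc. It encodes α8, which pairs only with β1 and is known from mouse kidney development, where it binds nephronectin. The signals of 166680_at were 943.7 and 1982.6 (11.5 dpc), 1601.5 and 1520.4 (12.5 dpc), 724.0 and 767.9 (14.5 dpc), 610.1 and 235.9 (16.5 dpc), 153.8 and 236.5 (18.5 dpc). Both samples at 18.5 dpc lay below both at 11.5 dpc, and the samples of 11.5 dpc and those of 16.5 dpc stood far apart from each other. The mean was 195 ± 58.5 at 18.5 dpc, against 1463 ± 735 at 11.5 dpc (SD, n = 2 each), a log2 change of -2.74 ± 0.40 (SE) or 6.69-fold lower (limma, adjusted p = 0.000903). The F test gave an adjusted p of 0.00159. No single step between successive ages was called, the lowest adjusted p being 0.229 in 14.5 against 12.5 dpc. The other Itga8 probe sets could not be tested: 100313_at had 15.2 and 49.0, 46.1 and 36.5, 8.5 and 3.0, 19.5 and 16.1, 13.1 and 2.5, in pairs of samples in order of age, and 100314_f_at had 2.3 and 9.1, 8.4 and 8.9, 2.7 and 4.2, 6.2 and 4.1, 4.3 and 4.5. On 100313_at both samples at 18.5 dpc were also below both at 11.5 dpc, all under 50, an order that 26.9% of all tested probe sets showed.

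Since the gonad forms on the mesonephros, an embryonic kidney, a list of markers of mesonephric tubules and ducts is given beside Itga8. Other cells of the mesonephros are not covered by it. The summed signal of its 7 genes on the arrays was 212.5 and 245.2 at 18.5 dpc, against 248.3 and 266.3 at 11.5 dpc. Pax2, Pax8, Wnt11, Ret and Cdh16 had signals under 50 in both samples of every age, none of the 7 was listed at 0, and neither of the 2 that could be tested was called. Itga8 itself was 6.69-fold lower at 18.5 dpc, and the part of mesonephric cells of any kind in that change was not tested.

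The main laminin-binding integrins are made with α3, α6 or α7, a set that is not complete. Itga6, whose α6 pairs with β1 or β4 and is a surface marker of many epithelia and of germ cells, was measured by 1 probe set. The signals of 95511_at were 183.8 and 170.3 (11.5 dpc), 204.8 and 144.8 (12.5 dpc), 325.2 and 288.4 (14.5 dpc), 350.8 and 358.1 (16.5 dpc), 329.8 and 342.9 (18.5 dpc). All 6 samples at 14.5, 16.5 and 18.5 dpc lay above all 4 at 11.5 and 12.5 dpc. Its mean was 307 ± 26.0 at 14.5 dpc, against 175 ± 42.4 at 12.5 dpc, and 336 ± 9.26 at 18.5 dpc, against 177 ± 9.55 at 11.5 dpc (SD, n = 2 each). The log2 change was 0.77 ± 0.17 in 14.5 against 12.5 dpc (SE, 1.71-fold, limma, adjusted p = 0.0484) and 0.87 ± 0.17 in 18.5 against 11.5 dpc (1.83-fold, adjusted p = 0.00602). The F test gave an adjusted p of 0.00355. The step at 14.5 dpc was close to the threshold: it was not called when either sample of 12.5, 14.5, 16.5 or 18.5 dpc was left out (adjusted p 0.0537 to 0.28). Without 18.5 dpc replicate 2 the change against 11.5 dpc had an adjusted p of 0.0547.

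Itga3 encodes α3, which pairs with β1 and is a laminin receptor of epithelia, kidney and lung. The signals of 104210_at were 37.9 and 27.5 (11.5 dpc), 88.3 and 53.6 (12.5 dpc), 68.6 and 98.3 (14.5 dpc), 106.2 and 111.5 (16.5 dpc), 106.1 and 107.4 (18.5 dpc). Both samples at 11.5 dpc were under 40, and every later sample was above them. The mean was 107 ± 0.919 at 18.5 dpc, against 32.7 ± 7.35 at 11.5 dpc (SD, n = 2 each), a log2 change of 1.34 ± 0.24 or 2.54-fold (limma, adjusted p = 0.00311, F test 0.0101). The second Itga3 probe set, 104211_at, had 46.7 and 79.7, 77.3 and 72.0, 47.4 and 101.6, 103.5 and 90.4, 103.3 and 107.3 in order of age. Its 18.5 dpc samples were again above its 11.5 dpc samples, as on 28.8% of all tested probe sets. The log2 change of 104211_at was 0.65 ± 0.28 and did not pass (limma, adjusted p = 0.151). Itga7, whose α7 is the laminin receptor of skeletal muscle, had 3 probe sets under 50 on all 10 arrays: 160086_at had 3.0 and 5.2, 3.5 and 4.3, 10.1 and 4.0, 6.0 and 4.3, 6.2 and 5.2, 161497_f_at had 18.5 and 24.1, 17.3 and 30.5, 20.3 and 45.9, 44.5 and 16.8, 34.4 and 27.8, and 93061_at had 8.8 and 11.5, 15.6 and 12.1, 11.6 and 9.4, 17.2 and 13.1, 14.1 and 28.1.

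The rise of Itga6 at 14.5 dpc stood beside a rise of epithelial markers. In 14.5 against 12.5 dpc 6 of 8 tested genes of the surface epithelium list were higher (Krt19, Krt18, Krt8, Krt7, Upk3b and Lgr5), where 2.17% of all genes were called and 1.6% were called as higher. Their list, 9 genes on the arrays, summed to 3768.5 and 3891.4 at 14.5 dpc, against 2238.5 and 2160.7 at 12.5 dpc, and Msln alone was under 50 at both ages. Of 12 germ cell genes 2 were higher and 2 lower in the same interval, with sums of 4064.9 and 2816.6 at 14.5 dpc, against 3589.1 and 2655.1 at 12.5 dpc. Lgr5 is in the supporting cell list too, where it and Gng13 were higher among 10 tested genes. Dcn and Eln were higher among 10 tested stroma and smooth muscle genes, and Emcn was lower among 10 tested endothelial genes. Itga6 and Itga3 were both higher at 18.5 than at 11.5 dpc, where 17.5% of all genes were called, 9.14% as higher and 8.37% as lower. In that comparison 6 of the 8 epithelial genes were higher and Wt1 was lower. Their list summed to 4568.3 and 4605.7 at 18.5 dpc, against 2424.4 and 1958.6 at 11.5 dpc. Of the germ cell genes 8 were higher and 2 lower, with sums of 5316.3 and 5382.6 at 18.5 dpc, against 2050.2 and 1674.5 at 11.5 dpc. Of those 8, Nobox and Lhx8 passed the limit for testing only through their signals at 18.5 dpc. Pou5f1 and Stra8 were under 50 in both samples at 18.5 dpc, and Sycp1, Sycp3, Stra8, Nobox, Figla and Lhx8 at 11.5 dpc. None of the genes of the epithelial and germ cell lists was at 0, and the part of all these cells in the Itga6 and Itga3 results was not tested.

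Among the subunits that bind the RGD motif of fibronectin, vitronectin and related proteins, Itgav was measured by 3 probe sets whose values ran in different orders. Its αv pairs with several β subunits and is broadly made. The signals of 104386_f_at were 713.6 and 752.5 (11.5 dpc), 449.8 and 539.4 (12.5 dpc), 490.7 and 674.6 (14.5 dpc), 518.1 and 543.8 (16.5 dpc), 460.4 and 507.2 (18.5 dpc). Both 11.5 dpc samples were the highest of the 10, and both 18.5 dpc samples lay below both at 16.5 dpc. The log2 change was -0.58 ± 0.17 between 18.5 and 11.5 dpc (1.50-fold lower, limma, adjusted p = 0.0399), with means of 484 ± 33.1 at 18.5 dpc and 733 ± 27.5 at 11.5 dpc (SD, n = 2 each), and the F test did not pass (adjusted p = 0.121). This call was lost without either sample of 11.5, 16.5 or 18.5 dpc (adjusted p 0.0554 to 0.223). On 104385_i_at the signals were 35.7 and 70.2, 74.1 and 111.6, 89.9 and 94.1, 101.5 and 97.9, 103.9 and 79.3 in order of age, and both 18.5 dpc samples lay above both at 11.5 dpc (log2 change 0.68 ± 0.26, adjusted p = 0.104). The third, 98366_at, stayed under 50 with 29.3 and 46.6, 46.2 and 40.1, 25.5 and 29.4, 24.0 and 29.3, 22.8 and 19.9. No direction is therefore given for Itgav.

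The fibronectin receptor subunit α5 and the platelet subunit αIIb belong to the same RGD-binding group. Itga5 (103039_at) had 6.7 and 14.7, 7.5 and 5.3, 4.8 and 4.9, 4.5 and 5.6, 5.8 and 8.6 and was not tested. Itga2b (131845_at), which encodes αIIb of megakaryocytes and platelets, had 47.2 and 38.8, 151.3 and 125.5, 60.7 and 47.9, 126.7 and 61.3, 40.6 and 80.9. Both 12.5 dpc samples were above both at 11.5 dpc and above both at 14.5 dpc, and neither step passed (adjusted p = 0.25 and 0.266, limma). The megakaryocyte list, 8 genes on the arrays, summed to 142.6 and 206.1 at 18.5 dpc, against 485.9 and 584.6 at 11.5 dpc. All 3 of its testable genes were lower at 18.5 dpc (Ppbp, Treml1 and Clec1b, limma), where 17.5% of all genes were called and 8.37% were called as lower, while Pf4, Gp1bb, Gp5, Gp9 and Vwf were under 50 in both samples of every age and none was at 0. The part of these cells in the Itga2b values was not tested.

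The subunits α4 and α9 form a pair by sequence and bind VCAM-1 or tenascin among other ligands. Itga9 (110958_at) had 176.8 and 190.8, 196.3 and 201.8, 189.3 and 164.7, 226.2 and 181.3, 168.0 and 142.0, a log2 change of -0.23 ± 0.21 between 18.5 and 11.5 dpc that did not pass (adjusted p = 0.53). Its second probe set, 163193_at, stayed under 50 with 18.4 and 22.5, 21.8 and 17.4, 16.7 and 11.4, 21.4 and 33.0, 35.1 and 17.3. Itga4, made in leukocytes, had 4 probe sets, all under 50 on all 10 arrays. They read 1.7 and 9.9, 7.7 and 9.2, 3.1 and 3.8, 4.1 and 15.4, 3.2 and 7.1 on 102655_at and 8.0 and 18.1, 15.0 and 22.9, 8.9 and 7.1, 16.3 and 12.6, 10 and 32.3 on 102656_at. The others read 18.0 and 8.2, 17.0 and 32.2, 17.6 and 25.9, 22.3 and 11.4, 44.6 and 33.8 on 105025_at and 6.8 and 14.7, 24.2 and 31.5, 16.1 and 16.7, 16.7 and 14.3, 15.8 and 20 on 95292_at.

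The collagen-binding subunits α1, α2, α10 and α11 gave low signals and no call. Itga1 on 168284_i_at had 65.8 and 17.0, 120.4 and 105.6, 17.9 and 23.7, 23.0 and 41.7, 24.8 and 16.5. Its 12.5 dpc samples were the highest, but neither the step before (adjusted p = 0.342) nor the step after passed (adjusted p = 0.118, limma). Its other probe set, 167435_at, stayed under 50 at 17.2 and 34.2, 11.8 and 17.1, 15.3 and 28.0, 12.3 and 5.5, 9.6 and 6.3. Itga10 (135131_at) ranged from 9.5 to 111.9 and Itga11 (115558_at) from 15.4 to 75.0, and Itga2 (98834_at) was over 50 on 1 array only, at 53.7 in 1 of the 16.5 dpc samples.

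Most of the leukocyte subunits gave signals under 50 on every array. Itgal (94764_at), the αL of lymphocytes, had 11.5 and 6.2, 9.9 and 9.5, 18.3 and 23.0, 7.8 and 2.5, 9.6 and 24.4. Itgam (98828_at), the αM of macrophages and granulocytes, had 3.3 and 7.2, 6.0 and 6.4, 8.5 and 4.1, 4.5 and 4.7, 2.6 and 3.0. Both encode partners of β2, and Itgb2 (102353_at) itself had 3.8 and 7.1, 19.8 and 10.1, 8.6 and 16.7, 11.1 and 11.8, 22.3 and 6.5. Low signal is not absence, but none of these 3 reached 50 on any array. Of the other leukocyte subunits Itgax (104308_at) ranged from 42.5 to 80.7 with an adjusted p of 0.193 between 18.5 and 11.5 dpc, and Itgad (167790_at) ranged from 14.0 to 166.6 with its 11.5 dpc samples at 27.6 and 166.6. Itgae, on 161730_f_at and 93961_at, and Itgb2l (94171_at), a relative of β2, stayed under 50 throughout. In the leukocyte list none of 7 testable genes was called in any of the 6 tests, and Ptprc, Adgre1, Lyz2, Aif1 and Fcer1g were under 50 in both samples of every age.

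Itgb1 encodes β1, the partner of most of the α subunits above. Its signals on 141172_at (array C) were 380.0 and 408.2 (11.5 dpc), 532.4 and 552.5 (12.5 dpc), 434.1 and 469.8 (14.5 dpc), 310.8 and 287.7 (16.5 dpc), 69.6 and 218.4 (18.5 dpc). All 4 samples at 16.5 and 18.5 dpc lay below the other 6. The mean was 144 ± 105 at 18.5 dpc, against 394 ± 19.9 at 11.5 dpc (SD, n = 2 each), a log2 change of -1.53 ± 0.37 (SE) or 2.89-fold lower (limma, adjusted p = 0.0151, F test 0.0166). The 18.5 dpc samples differed by more than either pair at 11.5 or 12.5 dpc. The call was lost without either 11.5 dpc sample or without 18.5 dpc replicate 1 (adjusted p 0.0556 to 0.118), and the F test call without 18.5 dpc replicate 1 (adjusted p = 0.0606).

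The array A probe sets of Itgb1 had smaller changes. On 100123_f_at the signals were 2169.7 and 2032.9 (11.5 dpc), 1430.2 and 1827.0 (12.5 dpc), 1838.4 and 2046.8 (14.5 dpc), 2155.0 and 1851.0 (16.5 dpc), 1485.6 and 1557.7 (18.5 dpc). Both 18.5 dpc samples lay below both at 11.5 dpc, a log2 change of -0.46 ± 0.16 that did not pass (limma, adjusted p = 0.0686). On 100124_r_at the signals were 372.6 and 458.6, 425.9 and 422.7, 327.7 and 426.3, 374.2 and 342.1, 326.0 and 293.2, with a log2 change of -0.40 ± 0.17 and the same order of both ages (adjusted p = 0.142). The 3 probe sets had changes of one sign between 18.5 and 11.5 dpc, but the size differed: the change on 141172_at was -1.53, against -0.46 and -0.40 on the others. The difference between probe sets was not tested.

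**Figure D2:**
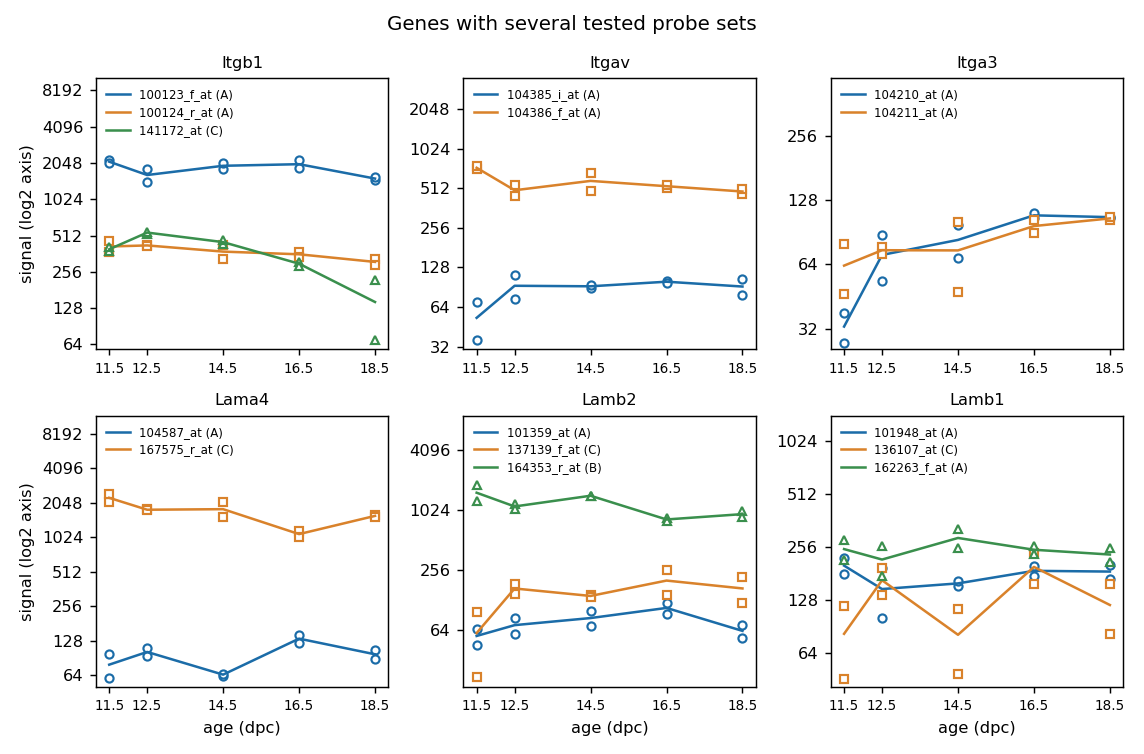
Signal on a log2 axis against age in dpc for 6 genes with several tested probe sets, 1 colour and symbol a probe set (array type in brackets), 1 symbol a sample and lines through the means of 2 samples. The Itgb1 probe sets end lower at 18.5 than at 11.5 dpc on all 3, whereas the tested probe sets of Itgav, Lama4, Lamb1 and Lamb2 differ in direction.

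The other β subunits were not called. Itgb5, a partner of αv, had 311.7 and 321.6, 315.6 and 295.0, 312.2 and 220.6, 409.4 and 453.6, 342.2 and 350.6 on 100601_at. The 16.5 dpc samples were the highest of the 10, and the step against 14.5 dpc gave a log2 change of 0.68 ± 0.17 that did not pass (limma, adjusted p = 0.0905). On 162218_f_at Itgb5 had 78.5 and 84.5, 68.1 and 88.7, 70.1 and 49.3, 77.8 and 48.5, 91.5 and 68.6, with an adjusted p of 0.955 between 18.5 and 11.5 dpc. Itgb7, a partner of α4 in lymphocytes, had 44.1 and 42.4, 106.4 and 74.0, 18.4 and 74.3, 78.0 and 75.6, 69.3 and 100.2 on 100906_at, where 1 of the 14.5 dpc samples was far below the other, and 5.0 and 8.4, 5.2 and 6.6, 20.5 and 5.8, 4.8 and 4.6, 6.6 and 6.3 on 162193_f_at. Itgb7 was not called (adjusted p = 0.196 for 100906_at between 18.5 and 11.5 dpc).

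Itgb3, Itgb4 and Itgb8 could not be tested. Itgb3, the partner of αIIb and αv, had 5.5 and 10.8, 11.3 and 4.5, 4.4 and 13.4, 12.8 and 14.0, 7.0 and 13.9 on 99904_at and 17.3 and 74.9, 46.7 and 13.9, 10.9 and 8.8, 13.1 and 8.5, 7.7 and 12.0 on 112196_at, where 1 sample at 11.5 dpc alone passed 50. Itgb4, the β4 of hemidesmosomes and a partner of α6, had 7.2 and 12.1, 10 and 7.8, 13.8 and 27.5, 14.4 and 6.8, 11.3 and 5.7 on 103305_at. Itgb8, another partner of αv, had 15.9 and 12.4, 15.2 and 9.5, 18.3 and 30.3, 32.6 and 24.1, 2.3 and 27.5 on 106886_at. Its second probe set, 114164_at, had 13.3 and 8.2, 2.0 and 11.8, 39.4 and 39.3, 48.7 and 34.1, 38.7 and 40.9, with all 6 samples from 14.5 dpc on above all 4 earlier ones, yet all under 50.

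The laminin α chain sets which integrins a laminin can bind. Lama1, the α1 chain of the laminin of early embryonic basement membranes, had signals on 103729_at of 132.7 and 131.9 (11.5 dpc), 130.1 and 119.2 (12.5 dpc), 235.2 and 211.1 (14.5 dpc), 248.8 and 290.5 (16.5 dpc), 182.4 and 207.4 (18.5 dpc). All 6 samples from 14.5 dpc on lay above all 4 earlier ones, and the 16.5 dpc samples were the highest. The mean was 223 ± 17.0 at 14.5 dpc, against 125 ± 7.71 at 12.5 dpc (SD, n = 2 each), a log2 change of 0.77 ± 0.16 (SE) or 1.70-fold (limma, adjusted p = 0.0393). The F test gave an adjusted p of 0.00397, while the log2 change between 18.5 and 11.5 dpc, 0.51 ± 0.16, did not pass (adjusted p = 0.0578). The step at 14.5 dpc was not called when either sample of 12.5, 14.5, 16.5 or 18.5 dpc was left out (adjusted p 0.0554 to 0.196). The epithelial markers given beside Itga6 rose in the same interval, as did single markers of supporting cells and stroma. The part of these cells in the Lama1 result was likewise not tested.

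Lama4, the α4 chain of vascular and other mesenchymal basement membranes, had 2 tested probe sets that ran in different orders and 1 that was not tested. The signals of 167575_r_at were 2091.6 and 2419.8 (11.5 dpc), 1794.5 and 1758.8 (12.5 dpc), 1535.1 and 2058.0 (14.5 dpc), 1157.7 and 1021.3 (16.5 dpc), 1603.0 and 1536.9 (18.5 dpc). The 16.5 dpc samples were the lowest of the 10 and the 11.5 dpc samples the highest. The F test called it (limma, adjusted p = 0.0294), and none of the 5 comparisons of ages did. Its F test call was lost when 11.5 dpc replicate 2, or either of the samples at 12.5, 16.5 or 18.5 dpc, was left out (adjusted p 0.0573 to 0.131). On 104587_at the order was turned, with 61.3 and 97.4, 110.3 and 94.5, 63.6 and 66.3, 144.9 and 122.6, 106.4 and 89.0: the 16.5 dpc samples were there the highest, and the F test did not pass (adjusted p = 0.0735). The third, 161793_at, stayed under 50 with 5.0 and 7.7, 3.1 and 19.1, 2.8 and 3.6, 9.0 and 7.9, 4.8 and 5.5. In the endothelial list 4 of 10 testable genes were lower at 18.5 than at 11.5 dpc (Cdh5, Tie1, Emcn and Cldn5), where 17.5% of all genes were called and 8.37% were called as lower. Its 12 genes summed to 991.0 and 907.2 at 18.5 dpc, against 1433.2 and 1351.6 at 11.5 dpc, none was at 0, and its part in the Lama4 values was not tested.

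Lama5, the α5 chain of most mature epithelial basement membranes, had 62.0 and 62.6, 80.9 and 71.1, 95.1 and 93.7, 103.3 and 88.6, 80.6 and 116.2 on 99931_at. Both 18.5 dpc samples were above both at 11.5 dpc, a log2 change of 0.53 ± 0.20 that did not pass (limma, adjusted p = 0.105). On 161702_f_at Lama5 had 35.4 and 63.6, 42.0 and 56.4, 53.1 and 51.4, 50.6 and 42.9, 42.1 and 43.1, near the testing limit, with an adjusted p of 0.801. Lama2, the chain of muscle and nerve laminin, had 32.8 and 36.1, 32.6 and 35.8, 25.9 and 42.1, 46.7 and 41.9, 29.3 and 26.6 on 92366_at, and Lama3, that of skin laminin, had 11.4 and 17.9, 23.2 and 40.0, 23.0 and 25.7, 29.1 and 25.4, 28.7 and 37.3 on 97790_s_at. Neither reached 50 on any array.

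Lamb2, the β2 chain known from glomerular and synaptic basement membranes, was called on 1 of its 4 probe sets. The signals of 164353_r_at (array B) were 1255.8 and 1821.2 (11.5 dpc), 1187.9 and 1049.2 (12.5 dpc), 1438.7 and 1430.3 (14.5 dpc), 853.3 and 801.8 (16.5 dpc), 999.6 and 874.1 (18.5 dpc). All 4 samples at 16.5 and 18.5 dpc lay below the other 6. The mean was 937 ± 88.7 at 18.5 dpc, against 1538 ± 399.8 at 11.5 dpc (SD, n = 2 each), 1.61-fold lower (limma, adjusted p = 0.0386, F test 0.0319). The call between 18.5 and 11.5 dpc was lost when 11.5 dpc replicate 2, or either of the samples at 12.5, 16.5 or 18.5 dpc, was left out (adjusted p 0.0522 to 0.224), and that of the F test without either sample of the last 4 ages (adjusted p 0.0539 to 0.098). On 137139_f_at the 18.5 dpc samples were instead above the 11.5 dpc samples, with 21.4 and 97.5, 187.0 and 147.1, 142.9 and 138.1, 144.5 and 256.8, 118.3 and 216.1 and a log2 change of 1.44 ± 0.50 that did not pass (adjusted p = 0.0752). On 101359_at they overlapped, with 45.1 and 66.0, 84.9 and 57.9, 99.1 and 69.2, 93.0 and 119.8, 53.5 and 71.5 (log2 change 0.14 ± 0.26, adjusted p = 0.771). The fourth, 137138_i_at, passed 50 in 1 of the 14.5 dpc samples only, with 9.6 and 23.3, 10.6 and 13.0, 58.2 and 10.1, 13.1 and 5.6, 18.8 and 15.9. No direction is therefore given for Lamb2.

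Lamb1, the β1 chain found in most laminins, did not pass on any of its 3 probe sets. It had 179.2 and 223.0, 101.1 and 194.8, 154.3 and 164.4, 201.2 and 174.5, 203.3 and 168.8 on 101948_at and 283.1 and 216.5, 175.9 and 259.7, 323.6 and 254.4, 261.7 and 233.6, 253.5 and 211.7 on 162263_f_at. On 136107_at it had 119.2 and 45.4, 136.8 and 195.3, 113.8 and 48.7, 236.6 and 158.8, 82.3 and 157.8, where the samples of 11.5 dpc and those of 14.5 dpc stood far apart. The adjusted p between 18.5 and 11.5 dpc was 0.83, 0.826 and 0.537 in that order. Lamb3, the partner of Lama3 in skin, stayed under 50 with 7.0 and 17.0, 8.9 and 10.2, 6.6 and 5.6, 5.5 and 7.5, 4.8 and 5.3 on 161188_f_at and 4.4 and 7.6, 5.3 and 10, 6.3 and 7.9, 11.4 and 6.1, 10 and 10.9 on 92759_at.

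Lamc1, the γ1 chain of nearly all basement membrane laminins, had 112.3 and 84.5, 97.6 and 82.3, 64.8 and 111.0, 87.8 and 84.3, 117.9 and 86.7 on 161706_f_at. All ages overlapped, and the log2 change between 18.5 and 11.5 dpc was 0.05 ± 0.24 (limma, adjusted p = 0.928). Its second probe set, 102404_at, stayed under 50 with 13.0 and 15.8, 18.6 and 22.8, 14.9 and 24.2, 9.3 and 22.4, 10.3 and 22.2. Lamc3 (166616_at) ranged from 18.5 to 31.4.

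Itgb1bp1, which encodes ICAP-1, a protein that binds the tail of β1 and opposes its activation, was called on 1 of 4 probe sets. The signals of 100991_at were 50.3 and 52.5 (11.5 dpc), 76.8 and 111.9 (12.5 dpc), 130.3 and 73.5 (14.5 dpc), 107.6 and 91.2 (16.5 dpc), 117.3 and 104.9 (18.5 dpc). Both 11.5 dpc samples were the lowest of the 10. The mean was 111 ± 8.77 at 18.5 dpc, against 51.4 ± 1.56 at 11.5 dpc (SD, n = 2 each), a log2 change of 0.91 ± 0.25 or 1.88-fold (limma, adjusted p = 0.0276). The call was lost without either sample of 11.5 or 18.5 dpc (adjusted p 0.0627 to 0.15). The log2 change was 0.59 ± 0.22 on 100989_at and 0.32 ± 0.18 on 100990_g_at, both with the 18.5 dpc samples above, and -0.43 ± 0.30 on 170272_r_at, and none of the 3 passed (adjusted p = 0.0934, 0.272 and 0.37). Itgb3bp (163870_at), which encodes the centromere protein CENP-R, ranged from 151.0 to 336.2 and was not called (adjusted p = 0.705). Itgb1bp2 (163038_at) passed 50 on 1 array and Itgbl1 (135201_at) on none.

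**Figure D3:**
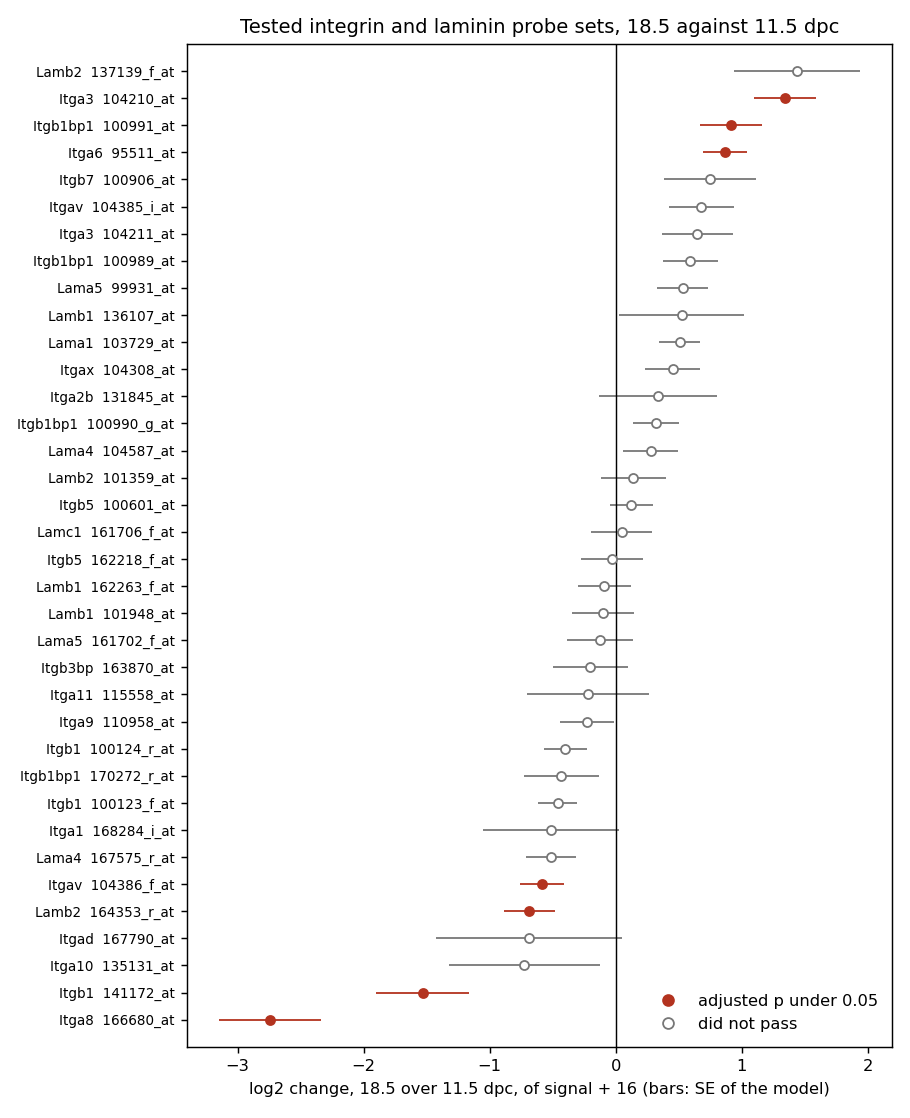
Log2 change of log2(signal + 16) between 18.5 and 11.5 dpc for the 36 tested probe sets, with bars of 1 standard error and filled points where limma's adjusted p was under 0.05. The filled points are 3 above 0 and 4 below it, and Itga8 at -2.74 lies farthest from 0.

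Of the 36 probe sets that were not tested, 32 stayed under 50 on all 10 arrays and 4 reached 50 on 1 array. They left 18 genes with no tested probe set: Itga2, Itga4, Itga5, Itga7, Itgae, Itgal, Itgam, Itgb2, Itgb2l, Itgb3, Itgb4, Itgb8, Lama2, Lama3, Lamb3, Lamc3, Itgb1bp2 and Itgbl1. A probe set that passed through the age where it was high was more likely to differ, so the 36 tested do not stand for all 72. The members lay unevenly over the array types, with 48 on array A (22 tested), 10 on B (4 tested) and 14 on C (10 tested). Of the tested probe sets 14 carried a letter in the suffix, which on these arrays marks a probe set that may be less specific to its gene. Among the called ones these were Itgav 104386_f_at, Lamb2 164353_r_at and Lama4 167575_r_at, while Itga3, Itga6, Itga8, Itgb1, Lama1 and Itgb1bp1 were called on plain probe sets.

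Other genes of the basement membrane were counted from a list of 29, of which 27 were tested. The F test over the 5 ages called 9 of the 27 (33.3%, against 17.8% of all genes). Between 18.5 and 11.5 dpc 4 were higher and 2 lower, 22.2% of the tested genes against 17.5% of all genes, with a median log2 change of 0.22, against 0.02 over all genes. The higher were Egfl6, Sdc4, Frem2 and Fbln2, and the lower were Pxdn and Nid2. Each gene was counted by 1 probe set, and others gave further calls. Agrn (log2 change 0.952 and 0.574, limma, adjusted p = 0.0175 and 0.0415) and Sdc1 (1.272, adjusted p = 0.00642) were higher there. Dag1 (-1.221, adjusted p = 0.0108) and 1 of 4 Utrn probe sets (-1.14, adjusted p = 0.00733) were lower. The counted probe sets of Agrn, Sdc1, Dag1 and Utrn had -0.328, 0.146, -0.132 and -0.228 and were not called. Pxdn encodes peroxidasin, which cross-links type IV collagen. It had 524.2 and 453.4, 283.0 and 316.1, 276.6 and 281.3, 289.8 and 318.0, 167.6 and 151.7 in order of age, and both 18.5 dpc samples were the lowest of the 10 (log2 change -1.52 ± 0.19, 2.87-fold lower, limma, adjusted p = 0.0002). Nid2 encodes nidogen-2, which links laminin to type IV collagen, and had 242.0 and 231.2, 220.2 and 245.3, 190.3 and 215.6, 96.9 and 130.5, 138.0 and 125.0 in order of age, with all 4 samples at 16.5 and 18.5 dpc below the other 6 (1.71-fold lower, adjusted p = 0.0115). Sdc4, a heparan sulfate proteoglycan that acts with integrins at focal adhesions, had 73.7 and 120.6, 134.7 and 122.7, 151.7 and 180.3, 289.3 and 232.5, 312.2 and 357.4 in order of age (3.16-fold, adjusted p = 0.000352), and its second tested probe set did not pass (log2 change 0.85, adjusted p = 0.0899). Frem2, a basement membrane protein, and Fbln2, a matrix protein that binds nidogen and laminin, were 2.10-fold and 1.89-fold higher (adjusted p = 0.0122 and 0.00704). The call of Nid2 was lost without either 18.5 dpc sample (adjusted p 0.0561 to 0.0937), that of Fbln2 without 18.5 dpc replicate 1 (0.0764), and that of Frem2 without 11.5 dpc replicate 2 or either 18.5 dpc sample (adjusted p 0.068 to 0.0762).

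Genes for ligands of α8β1 were in these lists as well. Egfl6, known in mouse skin as a basement membrane protein that binds α8β1, had 397.7 and 566.2, 1083.2 and 1110.9, 2657.8 and 4049.3, 5508.4 and 6004.9, 4782.5 and 5423.0 in order of age on 166787_i_at. Every sample from 14.5 dpc on lay above every earlier one. The mean was 5103 ± 453 at 18.5 dpc, against 482 ± 119 at 11.5 dpc (SD, n = 2 each), a log2 change of 3.38 ± 0.24 (SE) or 10.4-fold (limma, adjusted p = 3.46e-06). It was higher at 14.5 than at 12.5 dpc too (2.96-fold, adjusted p = 0.00488), a call lost without either 12.5 dpc sample (adjusted p 0.0517 to 0.061). Npnt, which encodes nephronectin, and Fn1, which encodes fibronectin, are named as further α8β1 ligands after their values were seen. Npnt had 50.1 and 22.2, 83.6 and 36.9, 40.8 and 59.7, 50.9 and 66.5, 76.5 and 90.5 in order of age and did not pass (adjusted p = 0.13), and Fn1 did not pass either (adjusted p = 0.37).

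In single steps the basement membrane list had 2 calls each in 14.5 against 12.5 dpc and in 16.5 against 14.5 dpc, where 2.17% and 0.858% of all genes were called, and 0 in the other steps, where limma called 0.238% (12.5 against 11.5 dpc) and 0.842% (18.5 against 16.5 dpc) of all genes. The first were Egfl6 and Frem2, beside the rise of Lama1 (2.29-fold for Frem2, adjusted p = 0.031, lost without either sample of 12.5, 14.5 or 18.5 dpc, adjusted p 0.055 to 0.222). The second were Hspg2, which encodes perlecan (2.12-fold higher, adjusted p = 0.0347), and the type IV collagen gene Col4a5 (2.20-fold higher, adjusted p = 0.0359). Hspg2 had 102.6 and 127.8, 173.9 and 126.6, 88.1 and 67.0, 184.6 and 178.2, 148.1 and 139.0 in order of age, and its 14.5 dpc samples were the lowest of the 10. The Hspg2 call was lost without either sample of 14.5, 16.5 or 18.5 dpc (adjusted p 0.062 to 0.174) and that of Col4a5 also without either 12.5 dpc sample (adjusted p 0.0624 to 0.156).

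**Figure D4:**
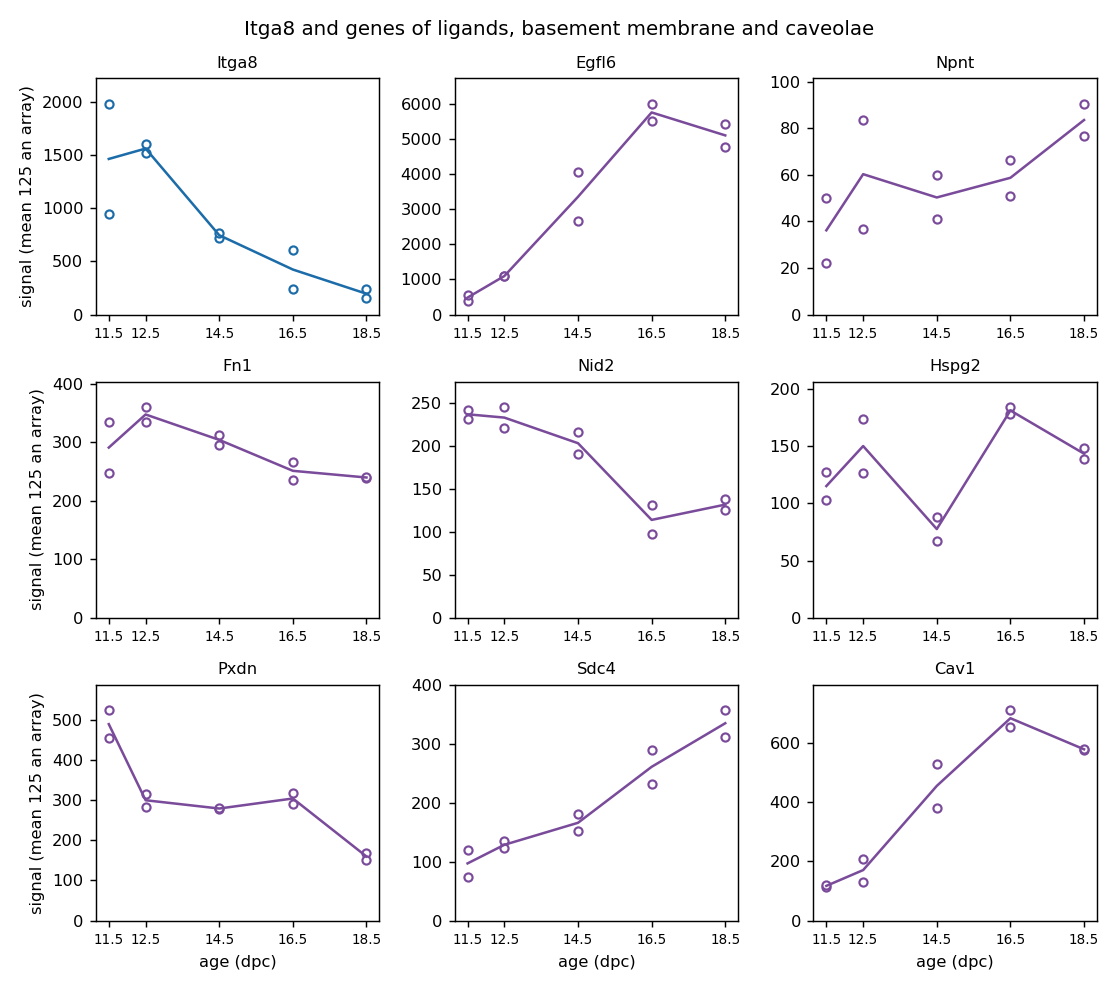
Signal (vertical axes, linear) against age in dpc (horizontal axes) for Itga8, its ligand genes Egfl6, Npnt and Fn1, the basement membrane and proteoglycan genes Nid2, Hspg2, Pxdn and Sdc4, and Cav1, with 1 circle a sample and a line through the means of 2 samples. At 18.5 dpc Itga8 is below and Egfl6 above its values at 11.5 dpc, Npnt and Fn1 did not pass the test, and Hspg2 is lowest at 14.5 dpc.

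Of 17 tested genes for other integrin ligands, Fgg and Fga, which encode fibrinogen chains, passed the limit for testing only through their signals at 18.5 dpc and are given as values. Fgg had 1.6 and 3.1, 1.4 and 2.1, 9.9 and 17.7, 7.6 and 9.1, 64 and 54.9 in order of age, and Fga had 10.8 and 23.0, 10.1 and 4.5, 20.3 and 37.8, 35.9 and 18.2, 86.8 and 103.2 in order of age. Both genes were under 50 on every array before 18.5 dpc. The F test called 8 of the 17 (47.1%, against 17.8% of all genes). That share includes Fga and Fgg, which were tested only through the age where they were high, so it is given as a description. The others called were Fbn2, Col1a1, Col3a1, Col5a1, Tgfbi and Emilin1. In single steps Col1a1 was higher in 16.5 against 14.5 dpc (limma, adjusted p = 0.0422), where 0.858% of all genes were called. Fbn2 was lower in 18.5 against 16.5 dpc (adjusted p = 0.0396), where 0.842% were called. This step was counted on 112910_f_at, 1 of its 4 tested probe sets. Where array A was preferred in choosing a gene's probe set, no gene of the list was called in that step. Both step calls were lost without either sample of 12.5, 14.5, 16.5 or 18.5 dpc. Each of the 15 genes other than Fgg and Fga was counted by 1 probe set. Between 18.5 and 11.5 dpc 2 of them were higher and 2 were lower, 26.7% of the 15 against 17.5% of all genes. The higher were the collagen genes Col1a1 and Col3a1. Col1a1 was 3.42-fold higher on 94305_at (limma, adjusted p = 0.00243), with a log2 change of 0.60 that did not pass on its other probe set (adjusted p = 0.0948). Col3a1 rose on 1 of 3 probe sets (1.66-fold, adjusted p = 0.0327), and the log2 change on the others was -0.16 and -0.19. The lower were Postn and Emilin1. Postn encodes periostin, a ligand of αv integrins (2.21-fold lower, adjusted p = 0.0113). Emilin1 encodes a ligand of α4β1 and α9β1 (1.99-fold lower, adjusted p = 0.0176). Probe sets that were not counted gave further calls as higher. Those of Fbn2 had log2 changes of 1.352, 0.862 and 2.301 (limma, adjusted p = 0.034, 0.0323 and 0.00301), against 0.006 on the counted one. That of Thbs2 had 1.254 (adjusted p = 0.0101), against -0.76 on the counted one (adjusted p = 0.209). The call of Emilin1 was lost without 11.5 dpc replicate 2 or 18.5 dpc replicate 1 (adjusted p 0.102 to 0.142). Without 11.5 dpc replicate 1 or either 18.5 dpc sample Col3a1 (adjusted p 0.0993 to 0.18) and Postn (0.0517 to 0.0673) did not pass. In the stroma and smooth muscle list, which shares Col1a1 and Col3a1, 6 of 10 tested genes were higher and Nr2f2 was lower at 18.5 dpc. Its 12 genes summed to 4562.1 and 4863.5 at 18.5 dpc, against 2378.4 and 2648.7 at 11.5 dpc. Cnn1 was under 50 at both ages, none was at 0, and the part of these cells was not tested.

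The cytoplasmic side of integrin adhesion was counted from a list of 45 adaptor and focal adhesion genes, of which 38 were tested. Between 18.5 and 11.5 dpc 3 were higher and 8 lower, 28.9% of the tested genes against 17.5% of all genes, with a median log2 change of -0.28, against 0.02 over all genes. The F test called 4 of the 38 (10.5%, against 17.8% of all genes): Ilk, Dock1, Tns3 and Cav1. Fyn and Rap1a, named below, were not called by it. Each gene was counted by 1 probe set, and others gave further calls between 18.5 and 11.5 dpc. Arhgef7 (log2 change 1.883, limma, adjusted p = 0.00341) and Cdc42 (0.923, adjusted p = 0.0292) were higher there. Lpp was lower on 1 of 5 probe sets (-0.542, adjusted p = 0.0288). The counted probe sets of Arhgef7, Cdc42 and Lpp had 0.007, -0.208 and 0.558 and were not called. The largest change was that of Cav1, which encodes caveolin-1 and is abundant in endothelium and stroma: it had 115.1 and 119.8, 209.6 and 131.9, 379.7 and 529.6, 711.0 and 654.9, 577.1 and 579.2 in order of age on 160280_at (4.45-fold higher, limma, adjusted p = 5.02e-05). Its other tested probe set did not pass (log2 change 0.93, adjusted p = 0.127). Cav1 was also higher at 14.5 than at 12.5 dpc (2.54-fold, adjusted p = 0.00615), a call lost without replicate 2 of either age (adjusted p 0.0744 and 0.0764). Ilk, the integrin-linked kinase that binds β tails, was 1.81-fold higher (adjusted p = 0.00712), a call lost without 18.5 dpc replicate 2 (adjusted p = 0.0712).

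The largest falls of that list were in Tns3, which encodes a tensin that joins β tails to actin (2.40-fold lower, adjusted p = 0.0013), and Rap1a, a small GTPase that activates integrins (2.10-fold lower, adjusted p = 0.0191). The kinase gene Fyn was 1.96-fold lower (adjusted p = 0.0106), and Dock1, an activator of Rac, was 1.87-fold lower (limma, adjusted p = 0.00764). Fyn had a second tested probe set whose log2 change was 0.84 (adjusted p = 0.462), so its direction rests on 100133_at. The call of Dock1 was lost without either 18.5 dpc sample (adjusted p 0.0599 to 0.0652), that of Fyn without 11.5 dpc replicate 2 or 18.5 dpc replicate 2 (0.0557 to 0.112), and that of Rap1a without 11.5 dpc replicate 1 or either 18.5 dpc sample (0.0715 to 0.122). All comparisons of 18.5 with 11.5 dpc in these lists use the same 18.5 and 11.5 dpc samples as those of the integrins and laminins.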

How the data were processed

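The authors deposited signal intensities, 1 per probe set and array, on arrays of 3 Affymetrix types, 30 in all, scaled per array to a mean of 125 as the labels state. The software behind them was not given in the sources used here. Without detection calls, a low signal was not called absent. No control probe sets were used in the fits. Gene names came from GEO's platform annotation, where 29131 probe sets had 1 symbol, 724 several and 6846 none. All 72 member probe sets were found in a RefSeq gene table (GRCm38.p6, used for names only) with the symbol unchanged.

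Samples were grouped by the age in their titles. For each array type log2(signal + 16) was modelled on age with limma (version 3.58.1, under R 4.3.3), using lmFit and eBayes with trend, with 5 residual degrees of freedom. Each age was compared with the age before it and 18.5 with 11.5 dpc, and an F test was run over the 5 ages, which made 6 tests. The Benjamini-Hochberg adjustment took the 3 types together. The number of arrays limits the precision. The arrays of a sample number were left out together.

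The members, the gene lists and the rule for named genes were chosen with earlier results of these data known. Values are given for every called member and for a set list of well-known subunits and chains. Each gene of another list is given by 1 tested probe set, that of the highest mean log2 signal, and up to 6 called genes per list and comparison, those with the largest changes, were named. Marker sums take 1 probe set a gene, a tested one where there was one.

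Alternatives were pseudocounts of 1 and 64, no filter and a limit of 100, quantile normalization, median centring, no intensity trend, adjustment within each array type, a replicate block, each sample left out and, added after the data were seen, plain probe sets only. The labels number the samples 1 and 2 at each age. Deviations of same-numbered samples correlated at -0.046 to 0.103, so the numbers were not taken to pair samples.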

Additional observations from a re-analysis of the deposited data

How the results depend on the processing

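The calls of Itga8 and Itga3, in 18.5 against 11.5 dpc and in the F test, and the F test calls of Itga6 and Lama1 passed under all 20 other settings, 6 of the 16 calls of members in the main analysis. In 14.5 against 12.5 dpc, where 2 members were called, the count was 1 with log2(signal + 1) and 0 with no filter on low signals, with no intensity trend and with the replicate block, in which the sample number is a term of the model. In 18.5 against 11.5 dpc, where 7 were called, it was 4 with quantile normalization (2 higher, 2 lower), 4 with no intensity trend (3 higher, 1 lower) and 6 with the replicate block. It was 5 with no filter, 8 with a limit of 100 and 9 with adjustment within each array type. In the F test, where 7 were called, it was 4 with no intensity trend. With no filter more probe sets were tested, and for the other settings the cause was not tested. With plain probe sets only, both counts of 7 became 5. With 1 sample left out the count ranged from 0 to 1 in 12.5 against 11.5 dpc, 0 to 2 in 14.5 against 12.5 dpc, 0 to 2 in 16.5 against 14.5 dpc, 0 to 1 in 18.5 against 16.5 dpc, 3 to 7 in 18.5 against 11.5 dpc and 4 to 9 in the F test. The count in 18.5 against 11.5 dpc was 3 without either 18.5 dpc sample and 4 without 11.5 dpc replicate 1. In 14.5 against 12.5 dpc both Itga6 and Lama1 lost their call whichever sample of 12.5, 14.5, 16.5 or 18.5 dpc was left out: the count was 0, except 1 without 14.5 dpc replicate 2, where Itgb7 was called as lower. The F test count was 4 without 18.5 dpc replicate 1. No called change of a member, or of a named gene of the basement membrane, ligand and adaptor lists on its counted probe set, turned its sign under these settings. The cell type markers are not covered by that statement. Signals near 50 limit what could be seen: the 36 untested member probe sets give no information on change.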
